A study of Mus musculus with 12 samples.

Results

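The cholesterol synthesis genes described here are Hmgcs1, Idi1, Fdps, Sqle, Lss, Cyp51 and Insig1, chosen by gene name as targets of the transcription factor SREBP2, and all 7 were found among the 54532 genes of the count table. RNA was sequenced from liver and subcutaneous fat of male mice that received an AAV8 vector at 10 weeks of age, were then kept on a low-fat diet, and were sampled 16 weeks later. In the hHKDC1 OE mice the vector carried human HKDC1, a hexokinase-like gene, behind the hepatocyte-specific TBG promoter, and the null mice received the same AAV8-TBGp vector without it, so that fat itself was not meant to express the transgene. Each tissue and vector had 3 libraries, 12 in all, with 15496019 to 19954971 counts on genes per library. In each tissue a label calls 2 of the 3 hHKDC1 OE libraries knockouts, while their titles and treatment say overexpression. The human transcript is not in the mouse table, and mouse Hkdc1 had 0 to 8 counts per library, so the table holds no check of those labels. Tissue labels were borne out by their markers: 10 hepatocyte markers summed to 109114 to 172650 CPM (counts scaled to library size) in liver, and 8 adipocyte markers to 15406 to 22012 CPM in fat. The labels do not say whether liver and fat libraries of the same number came from one mouse.

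Cells make cholesterol from acetyl-CoA by way of mevalonate, isoprenoid units, squalene and lanosterol. When sterols in the endoplasmic reticulum run low, SREBP2 is carried to the Golgi by its escort SCAP, cut free, and enters the nucleus, where it binds sterol regulatory elements next to sites for NF-Y and Sp1 in the promoters of nearly every gene of the route. INSIG proteins hold the SCAP-SREBP complex back when sterols are plentiful, and the liver is known as a major site of this synthesis.

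The upstream sequences of the genes are shown because these promoters are known for a shared arrangement of such sites. RefSeq windows on GRCm38.p6 were matched for 5 of the 7 genes, and bases were numbered backwards from the RefSeq start site. Capitals mark CCAAT, the NF-Y core, on either strand (ATTGG where it lies on the other strand), and TCACNCCAC, a form of the sterol regulatory element. For Idi1, Cyp51, Lss and Insig1 the count table places the gene's start further upstream than RefSeq does. The Lss and Insig1 sequences therefore stop before that start, at -18 and -50, and for Idi1 and Cyp51 only 30 bases around 1 CCAAT are shown.
Hmgcs1, chr13:119690201-119690350, plus strand: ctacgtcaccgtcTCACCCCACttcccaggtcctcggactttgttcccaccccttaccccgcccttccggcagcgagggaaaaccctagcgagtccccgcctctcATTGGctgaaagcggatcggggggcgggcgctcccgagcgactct
Idi1, chr13:8885549-8885578, plus strand: tgcctccagctgATTGGcgagcccgggcat
Lss, chr10:76531455-76531587, plus strand: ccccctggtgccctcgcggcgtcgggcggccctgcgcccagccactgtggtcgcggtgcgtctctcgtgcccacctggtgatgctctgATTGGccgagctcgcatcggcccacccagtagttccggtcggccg
Cyp51, chr5:4104709-4104738, minus strand: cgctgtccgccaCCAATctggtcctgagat
Insig1, chr5:28071162-28071362, plus strand: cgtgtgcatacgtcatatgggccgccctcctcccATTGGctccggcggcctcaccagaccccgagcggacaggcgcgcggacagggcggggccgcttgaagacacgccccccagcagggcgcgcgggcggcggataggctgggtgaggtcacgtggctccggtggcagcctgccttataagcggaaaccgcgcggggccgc

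All 5 windows of 250 bases held CCAAT, against 33.8% of 32851 RefSeq windows of the same length. All 5 also held GGGCGG, the Sp1 core, against 32.7% of windows. Both strands were searched for each motif. TCACNCCAC was found in 1 of the 5, in Hmgcs1 from -137 to -129, and in 1.05% of all windows. The shorter CACCCCAC lay within that same stretch and was in 2.58% of windows. Of 14 other enzymes of the route, 12 had a window, and 11 of these held CCAAT and 11 held GGGCGG. The same counts, in that order, were 3 and 2 of 7 genes of sterol efflux and esterification, 3 and 5 of 6 regulators, 3 and 3 of 6 fatty acid synthesis genes, and 3 and 2 of 4 sterol-responsive genes outside the route. A listed gene was counted if any of its windows held the motif, and some genes had several windows. Counts per gene are therefore not on the same scale as the shares of single windows. All these matches describe letters in the window and not bound sites.

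How strongly each gene was expressed was compared by FPKM, fragments scaled by the authors to gene length and library size, since only values per length can be set side by side between genes. Insig1, whose product retains the SREBP complex, was the highest of the 7 in null liver at 57.9 ± 31.0 FPKM (SD, n = 3). Hmgcs1, the synthase that makes HMG-CoA, followed at 22.7 ± 8.21 FPKM, and Cyp51, the lanosterol 14-demethylase, at 18.7 ± 8.35 FPKM. Ranges of neighbouring genes overlapped from Hmgcs1 down to Sqle, although all libraries of Hmgcs1 and Cyp51 lay above those of Lss and Sqle. Fdps, which makes farnesyl diphosphate, stood apart at the bottom with 0.645 ± 0.515 FPKM. In null fat Insig1 (42.0 ± 9.69 FPKM) and Hmgcs1 (38.1 ± 10.8 FPKM) overlapped each other and lay above the remaining 5 genes, which ranged from 6.45 ± 1.09 FPKM for Cyp51 to 0.114 ± 0.0309 FPKM for Fdps.

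The Fdps level, and with it the place of Fdps below the other genes, rests on few reads and is uncertain. Its counts were 10 to 59 per library in liver and 9 to 20 in fat. Of the 100-base windows of its transcript, 75.8% also occur in Gm3571, Gm5873 or Gm43738, the last of which overlaps Fdps on the same strand. Those genes together held 159 to 396 counts in liver and 60 to 102 in fat, so that Fdps had 5.26% to 18.9% of the summed counts. For Idi1 27.6% of windows were shared, with Gm13502, Gm35570 and Gm48574, and its own counts were 78.2% to 98.8% of the sum. Counting ignored strand, and an antisense gene shares 10.8% of the windows of Hmgcs1. Sqle and Insig1 shared none.

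**Figure D1:**
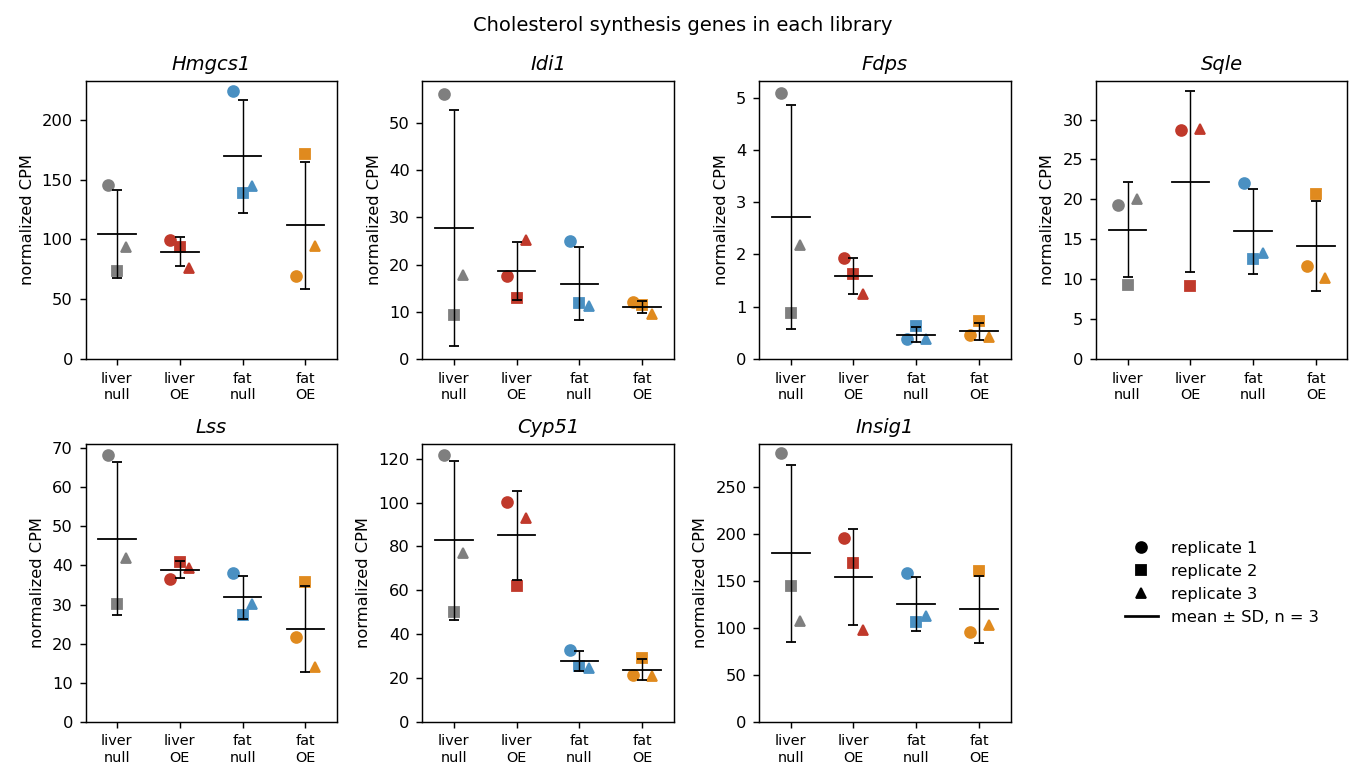
Normalized CPM (vertical axes, from 0) of the 7 genes in each of the 12 libraries, with horizontal groups liver null, liver OE, fat null and fat OE, where OE is hHKDC1 OE. Symbols give the replicate, bars the mean and SD of 3 libraries. Null liver replicate 1 is the highest null liver library for 6 genes, and the hHKDC1 OE and null libraries overlap in every panel for both tissues.

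The first question was whether hHKDC1 OE in hepatocytes altered these genes in the liver. None of the 7 passed the test in edgeR (adjusted p of 0.865 to 0.986, 0 with an unadjusted p under 0.05), DESeq2 likewise called 0 of them, and 5 log2 fold changes were negative and 2 positive with a median of -0.20 beside 0.01 for all genes. The background gave little to compare with: 0% of 13351 genes passed in either direction, with 927 at an unadjusted p under 0.05. In none of the 7 did the null and hHKDC1 OE livers separate, while 12.6% of all genes tested had groups that did not overlap.

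Hmgcs1 (chr13:119690379-119708260, plus strand, protein coding) measured 145, 73.9 and 94.0 CPM in the null livers and 99.1, 93.8 and 75.8 CPM in the hHKDC1 OE livers. The hHKDC1 OE values lay within the null range, and the log2 fold change was -0.20 ± 0.23 (SE, adjusted p = 0.908). Idi1 (chr13:8885501-8892451, plus strand), which interconverts the isoprenoid units, measured 56.2, 9.24 and 17.8 CPM in null and 17.6, 13.0 and 25.2 CPM in hHKDC1 OE liver. Its null livers spanned 6.09-fold, the widest of the 7, and its log2 fold change was -0.55 ± 0.54 (adjusted p = 0.895). Fdps (chr3:89093588-89101959, minus strand) measured 5.08, 0.888 and 2.19 CPM in null and 1.93, 1.63 and 1.24 CPM in hHKDC1 OE liver. The log2 fold change of Fdps was -0.74 ± 0.59 (adjusted p = 0.865), and -0.12 (adjusted p = 0.974) once the counts of the genes sharing its sequence were added.

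Sqle (chr15:59315077-59331192, plus strand) encodes squalene epoxidase, the first oxygen-requiring step. It measured 19.3, 9.33 and 20.0 CPM in null and 28.7, 9.12 and 28.8 CPM in hHKDC1 OE liver. In each group replicate 2 was low and the other 2 libraries were close to each other, and the log2 fold change was 0.47 ± 0.42 (adjusted p = 0.878). Lss (chr10:76531588-76557138, plus strand), which closes the rings to lanosterol, measured 68.4, 30.2 and 42.0 CPM in null and 36.5, 41.0 and 39.3 CPM in hHKDC1 OE liver. Its hHKDC1 OE libraries were the closest together of any of the 7 genes, with a coefficient of variation of 5.78% against 41.7% in null, and its log2 fold change was -0.24 ± 0.25 (adjusted p = 0.898).

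Cyp51 (chr5:4081145-4104746, minus strand) measured 122, 49.8 and 76.8 CPM in null and 100.3, 61.8 and 92.8 CPM in hHKDC1 OE liver, a log2 fold change of 0.06 ± 0.29 (adjusted p = 0.986). Insig1 (chr5:28071363-28078662, plus strand) measured 286, 145 and 107 CPM in null and 196, 169 and 97.4 CPM in hHKDC1 OE liver, a log2 fold change of -0.19 ± 0.36 (adjusted p = 0.955). Both genes therefore had null ranges that took in all or nearly all of the hHKDC1 OE values.

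The direction in liver turned on 1 control library. Null liver replicate 1 was the highest of the null livers for 6 of the 7 genes, all but Sqle, and the 7 summed to 702 CPM there against 319 and 360 CPM in the other two. It was also the highest for 12 of the 14 other enzymes, beside 41.0% of the 12730 genes with a mean of at least 1 CPM. Without it all 7 log2 fold changes were positive, from 0.06 for Fdps to 0.60 for Sqle with a median of 0.30, and none passed the test (lowest adjusted p of 0.864, for Cyp51). Hepatocyte markers summed to 172650 CPM in it, the highest of the 6 livers, and the null livers (149327 to 172650 CPM) did not overlap the hHKDC1 OE livers (109114 to 148041 CPM). The part of that difference in the values was not tested, and in bulk tissue fewer cells of a type and less RNA per cell cannot be told apart.

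The other genes of the route did not pass the test in liver either: 0 of 14 other enzymes were called in edgeR (1 with an unadjusted p under 0.05), 10 negative and 4 positive, with a median of -0.11 that turned to 0.11 without null liver replicate 1. Among the largest differences were those of Acat2, which starts the route from acetyl-CoA, at -0.51 ± 0.23 (adjusted p = 0.725), and Hsd17b7 at -0.42 ± 0.23 (adjusted p = 0.788), which came to -0.21 and -0.099 without that library.

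**Figure D2:**
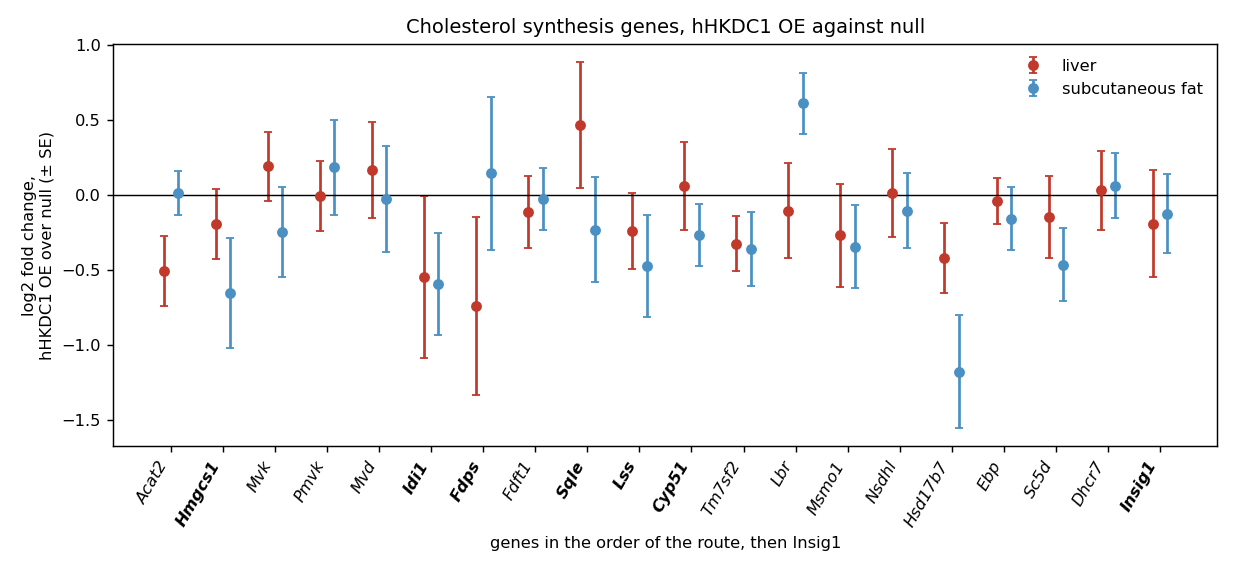
Log2 fold change of hHKDC1 OE over null (vertical axis, points with SE) for 19 enzymes in the order of the route and Insig1 (horizontal axis, the 7 genes in bold), in liver and in subcutaneous fat. None passed the test in either tissue; Hsd17b7 in fat, at -1.18, is the lowest point.

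The second question was whether the genes differed in subcutaneous fat, which the vector's promoter does not target. None of the 7 passed (adjusted p of 0.383 to 0.893, 0 with an unadjusted p under 0.05), DESeq2 called 0, and 6 were negative and 1 positive with a median of -0.27 beside -0.05 for all genes. Of 16380 genes tested in fat 0% passed in either direction, with 2903 at an unadjusted p under 0.05. Again 0 of the 7 had groups that did not overlap, against 22.3% of all genes.

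Hmgcs1 in fat measured 224, 139 and 145 CPM in null and 69.6, 171 and 94.3 CPM in hHKDC1 OE. Of the hHKDC1 OE libraries 2 lay below every null library and replicate 2 lay among them, and the log2 fold change was -0.66 ± 0.37 (adjusted p = 0.383). Idi1 measured 24.9, 11.9 and 11.2 CPM in null and 12.1, 11.5 and 9.52 CPM in hHKDC1 OE fat, or -0.59 ± 0.34 on the log2 scale (adjusted p = 0.389). Null replicate 1 was high, and the other 5 libraries spanned 9.52 to 12.1 CPM. Fdps measured 0.391, 0.625 and 0.384 CPM in null and 0.463, 0.721 and 0.416 CPM in hHKDC1 OE fat, a log2 fold change of 0.14 ± 0.51 (adjusted p = 0.893) that became -0.18 once the counts of the genes sharing its sequence were added.

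Sqle measured 22.1, 12.6 and 13.3 CPM in null and 11.7, 20.6 and 10.1 CPM in hHKDC1 OE fat (log2 fold change -0.23 ± 0.35, adjusted p = 0.744). Lss measured 38.1, 27.3 and 30.1 CPM in null and 21.6, 35.7 and 13.995 CPM in hHKDC1 OE fat (-0.47 ± 0.34, adjusted p = 0.481). In both genes hHKDC1 OE replicates 1 and 3 lay below all null libraries and replicate 2 did not. Cyp51 measured 32.8, 25.3 and 24.5 CPM in null and 21.2, 29.3 and 21.02 CPM in hHKDC1 OE fat (-0.27 ± 0.21, adjusted p = 0.509), with the same layout. Insig1 measured 158, 106 and 113 CPM in null and 95.1, 161 and 103 CPM in hHKDC1 OE fat (-0.13 ± 0.26, adjusted p = 0.816), again with replicate 2 as the high one.

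Fat hHKDC1 OE replicate 2 thus stood apart from its group, being the highest of the 3 for 6 of the 7 genes, all but Idi1, with a sum of 429 CPM against 232 and 253 CPM. It was the highest for 8 of the 14 other enzymes, beside 33.0% of the 14476 genes with a mean of at least 1 CPM. Without it all 7 genes were negative with a median of -0.63, and Hmgcs1 at -1.13 (adjusted p = 0.0325) and Lss at -0.91 (adjusted p = 0.0467) passed the test, 2 of 7 beside 18.9% of the 17190 genes tested in that fit. The same library differed in markers of immune cells: 8 B cell markers summed to 34.6 CPM in it and to 625 and 457 CPM in the other hHKDC1 OE fat, against 1.38 to 2.53 CPM in null fat, and 6 T cell markers to 17.7 CPM against 245 and 276 CPM. Skeletal muscle markers spanned 366 to 15576 CPM over the 6 fat libraries. Markers of hepatocytes (1363 to 2274 CPM in hHKDC1 OE and 2740 to 6634 CPM in null fat), keratinocytes (1.35 to 7.14 and 8.61 to 149.7 CPM, with 1 to 3 of the 4 at 0 in each hHKDC1 OE library) and sebocytes (3.88 to 4.54 and 6.21 to 9.72 CPM) were lower in hHKDC1 OE fat without overlap. The sebocyte markers summed to 1.69 to 5.44 CPM in the livers as well, so their fat values were low ones. Of all genes tested in fat, 22.3% had groups that did not overlap. The part of any of these cell types in the values of the 7 genes was not tested. Fat null replicate 1 was in turn the highest of its group for 6 of the 7 genes and for 9 of the 14 other enzymes, beside 35.1% of 13958 genes. Leaving it out gave 3 positive and 4 negative log2 fold changes of the 7 genes with a median of -0.14 and no calls.

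Of the other enzymes 0 of 14 passed in fat (2 with an unadjusted p under 0.05), 10 negative and 4 positive, with a median of -0.13, which was 0.021 under library size alone and -0.29 without hHKDC1 OE replicate 2. Hsd17b7, a keto-reductase of the late route, measured 19.0, 12.04 and 11.7 CPM in null and 5.59, 9.81 and 4.203 CPM in hHKDC1 OE fat, so that the groups did not overlap (log2 fold change -1.18 ± 0.38, adjusted p = 0.190). Of the 14 other enzymes 2 had groups without overlap in fat, beside 22.3% of all genes. Lbr, a sterol reductase that is also a nuclear envelope protein, was at 0.61 ± 0.20 (adjusted p = 0.201). Without hHKDC1 OE replicate 2 both passed, Hsd17b7 at -1.62 (adjusted p = 0.0158) and Lbr at 0.71 (adjusted p = 0.0466).

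Whether liver and fat differed in their response was tested as the difference of both effects. None of the 7 passed (adjusted p of 0.677 to 1.000), 4 were positive and 3 negative, and 0% of 17070 genes passed, with 2163 at an unadjusted p under 0.05. The differences ran from -0.97 ± 0.85 for Fdps to 0.63 ± 0.63 for Sqle, and with the counts of the sequence-sharing genes added Fdps was at -0.028.

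Among 6 regulators of the route 0 passed in liver or in fat, with 2 at an unadjusted p under 0.05 in each tissue, Srebf2 and Insig2, neither of which DESeq2 called in liver or in fat. Srebf2, which encodes SREBP2 itself, measured 62.2, 60.9 and 66.2 CPM in null and 46.4, 49.6 and 49.6 CPM in hHKDC1 OE liver, a log2 fold change of -0.36 ± 0.13 (adjusted p = 0.606). In fat it measured 35.7, 39.0 and 35.2 CPM in null and 77.7, 41.2 and 61.1 CPM in hHKDC1 OE, or 0.65 ± 0.23 (adjusted p = 0.219, and 0.84 with adjusted p = 0.0117 without hHKDC1 OE replicate 2). The groups did not overlap in either tissue and lay in opposite orders. Such groups were seen for 2 of the 6 regulators in liver and for 4 in fat, where Srebf1 and Mbtps1 were among them. Of all genes tested, 12.6% in liver and 22.3% in fat had groups that did not overlap. In fat, hHKDC1 OE replicate 2 was the lowest of its group for Srebf2 and for the B cell (625, 34.6 and 457 CPM) and T cell (245, 17.7 and 276 CPM) marker sums, though not for the macrophage sums (135, 197 and 221 CPM), and the part of immune cells in its level was not tested. The difference between tissues was -1.09 ± 0.27 (adjusted p = 0.143), -0.98 in DESeq2 (adjusted p = 0.0255) and -1.08 without fat hHKDC1 OE replicate 2 (adjusted p = 0.00584). Insig2, the second INSIG protein, lay lower in hHKDC1 OE without overlap in both tissues: 123 to 228 against 254 to 335 CPM in liver (-0.60 ± 0.23, adjusted p = 0.641) and 34.7 to 42.7 against 47.9 to 53.8 CPM in fat (-0.46 ± 0.14, adjusted p = 0.179, and -0.57 with adjusted p = 0.0266 without hHKDC1 OE replicate 2).

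**Figure D3:**
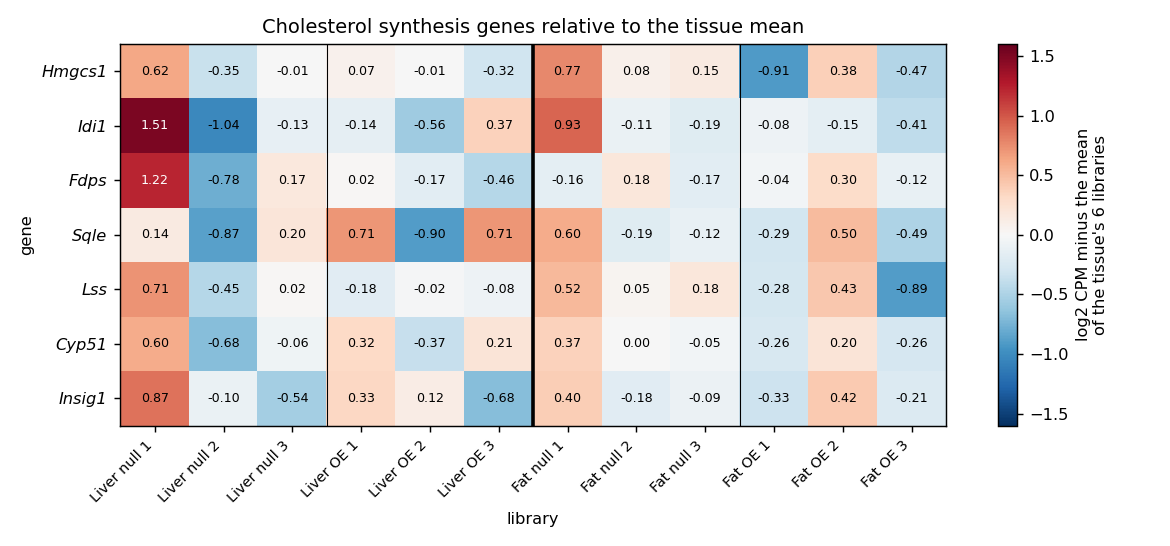
Log2 normalized CPM of the 7 genes (rows) in 12 libraries (columns) minus the mean of the 6 libraries of the same tissue (colour scale and printed values). The column of null liver replicate 1 is positive for all 7 genes and that of null liver replicate 2 negative for all 7, and fat null replicate 1 and fat hHKDC1 OE replicate 2 are each positive for 6.

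The 7 genes went up and down together from library to library, as the map of centred values shows. After centring within each tissue, all 21 pairs of the 7 genes had a positive Pearson correlation over the 12 libraries, with a median of 0.61 and a range of 0.16 (Sqle with Insig1) to 0.87 (Idi1 with Cyp51). The points share library depth, normalization and tissue composition, and the correlations are descriptions. Cyp51 followed the mean of the other 6 most closely (r = 0.93), then Lss (0.82), Idi1 (0.81), Hmgcs1 (0.77), Fdps (0.67), Insig1 (0.61) and Sqle (0.55). In fat alone Sqle followed the others at 0.96 and in liver alone at 0.39, while Fdps did so at 0.15 in fat and 0.89 in liver.

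Likeness to the mean of the 7 genes was then measured for all 12763 genes tested in both tissues, whose median r was -0.03 and 90th percentile 0.53. Among the other enzymes, Sc5d (0.95), Msmo1 (0.89), Nsdhl (0.87), Dhcr7 (0.76) and Hsd17b7 (0.76) were above that percentile, and so were Mvk, Mvd and Tm7sf2 at 0.64 to 0.68. Pmvk (0.13) and Lbr (0.06) were the lowest of the 14. Of the 6 regulators, Srebf2 had r = -0.37 and the other 5 ranged from 0.16 for Scap to 0.59 for Mbtps1. The 9 efflux and esterification genes ranged from -0.76 for Abcg1 to 0.61 for Abca1, both exporters of cellular cholesterol, with 5 positive and 4 negative. Outside the lists, the 10 genes most like the mean of the 7 included 6430548M08Rik (0.95), Cyp20a1, Rnf24, Rnf14, Sntb1, Kcnt2, Kpnb1, Klhl22 and Mospd2 (0.86).

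The level of the route in the 2 tissues was compared in the null libraries. Cyp51 and Fdps were higher in liver, Hmgcs1 was the only one of the 7 with a higher mean in fat, and Sqle had nearly equal means. Of all 15259 genes tested 64.3% passed, 30.5% as higher in liver and 33.8% as lower, so 2 of 7 called is below the background share. Cyp51 averaged 82.8 ± 36.3 CPM in null liver and 27.5 ± 4.61 CPM in null fat (SD, n = 3), with no overlap, a 3.00-fold difference (log2 1.59 ± 0.31, adjusted p = 0.00242). Fdps averaged 2.72 ± 2.15 and 0.466 ± 0.137 CPM, also without overlap (5.77-fold, log2 2.53 ± 0.67, adjusted p = 0.0114), on the low counts and shared sequence given above, and at 1.73 without null liver replicate 1 (adjusted p = 0.0489).

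Hmgcs1 averaged 104 ± 36.9 CPM in null liver and 169 ± 47.5 CPM in null fat (log2 -0.70 ± 0.29, adjusted p = 0.0640), and passed without null liver replicate 1 (-0.997, adjusted p = 0.0176), without fat null replicates 2 or 3, and in DESeq2 (adjusted p = 0.0364). It also passed with upper-quartile scaling, library size alone, no filter, a minimum of 10 counts in every library and the replicate block, and kept its main outcome in 5 of 14 alternatives. Lss (0.56 ± 0.29, adjusted p = 0.123), Insig1 (0.51 ± 0.35, adjusted p = 0.234), Idi1 (0.79 ± 0.62, adjusted p = 0.295) and Sqle (0.02 ± 0.34, adjusted p = 0.960) did not pass. Lss passed without null liver replicate 2, at 0.80 (adjusted p = 0.0327). Without null liver replicate 1 Idi1 and Sqle had negative values (-0.23 and -0.11), and Insig1 was at 0.02 and Lss at 0.20. The all-gene median was -0.09, and -0.97 under scaling by library size alone, where 20.3% of calls were higher in liver in place of 47.4%. Under it Cyp51 (0.69, adjusted p = 0.0577) and Fdps (1.63, adjusted p = 0.0524) did not pass, while Hmgcs1 (-1.595, adjusted p = 0.00123) and Sqle (-0.87, adjusted p = 0.0464) passed as lower in liver. Idi1, Lss and Insig1 turned negative without passing, and, of the other 14 enzymes, 8 passed as higher with a median of 0.96.

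**Figure D4:**
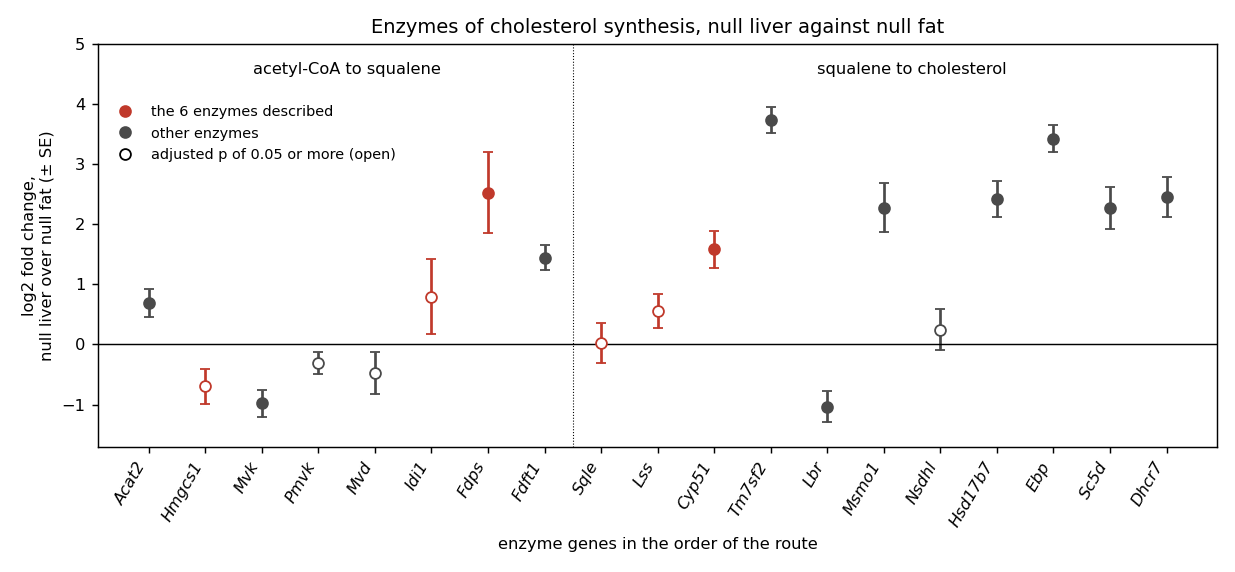
Log2 fold change of null liver over null fat (vertical axis, points with SE) for 19 enzyme genes in the order of the route (horizontal axis), with filled points at an adjusted p under 0.05. The genes after Lss lie between 1.59 and 3.74 except Lbr at -1.04 and Nsdhl at 0.24, and those before squalene between -0.98 and 2.53.

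Most enzymes after Cyp51 were further apart between the tissues than most of the 7 genes. Of the 14 other enzymes 9 were higher in liver and 2 lower, beside 30.5% and 33.8% of all genes, and of the 9 Acat2 (0.69, adjusted p = 0.0306) did not pass without null liver replicate 1 or without fat null replicate 1 or 2, nor with upper-quartile scaling (adjusted p = 0.0717), library size alone (-0.21) or a minimum of 10 counts in every library (adjusted p = 0.0625). Splitting the 19 enzymes plotted at squalene, a division made after the values were seen, gave 3 higher, 1 lower and 4 not called of the 8 up to squalene, with a median of 0.19, and 3 of 8 is near the share of all genes higher in liver. The 11 after squalene gave 7 higher, 1 lower and 3 not called, with a median of 2.27. Tm7sf2 (3.74 ± 0.22, adjusted p = 6.27e-06) and Ebp (3.42 ± 0.23, adjusted p = 1.03e-05), a sterol isomerase, were among the furthest apart. Lbr, which carries the same sterol reductase activity as Tm7sf2, was lower in liver (-1.04 ± 0.26, adjusted p = 0.00790), as was Mvk, mevalonate kinase (-0.98 ± 0.23, adjusted p = 0.00616).

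Hepatocyte markers in the null fat libraries stood at 1.72%, 1.77% and 4.16% of the null liver mean. The mean fat level of Abcg5 and Abcg8, the paired sterol exporters of hepatocytes, was 1.88% and 1.91% of that in liver, and that of Soat2, a cholesterol esterifying enzyme, 3.09%, all within that range. Tm7sf2 (7.47%), Ebp (9.31%), Fdps (17.2%) and Cyp51 (33.3%) were above it, and Hmgcs1 was at 162%. The part of hepatocyte RNA in any of these fat levels was not tested. Insig1 in fat was at 69.9% of liver, whereas Insig2 was at 17.7% (log2 2.498 ± 0.17, adjusted p = 1.02e-05). Srebf2 (0.78 ± 0.11, adjusted p = 0.000543) and Scap (1.70 ± 0.15, adjusted p = 3.95e-05), the sterol-sensing escort, were also higher in liver. Of the 6 regulators 3 passed, each as higher in liver, beside 30.5% of all genes higher and 64.3% in either direction. Of 5 sterol-responsive genes outside the route 3 were higher in liver, beside 30.5% of all genes, among them Stard4 (3.46 ± 0.34, adjusted p = 6.35e-05), a sterol carrier, and Tmem97 (3.70 ± 0.24, adjusted p = 9.65e-06), while Aacs was lower.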

How the data were processed

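Total RNA of 12 mouse libraries, 3 for each tissue and vector, was sequenced. Per the labels and the study's methods, the authors aligned with STAR 2.5, beside which the methods name a later STAR version. HTSeq 0.6.1 gave gene counts without regard to strand. The deposited counts are whole numbers without normalization, and the authors also deposited FPKM values. The methods name a human reference, but the table holds mouse genes, 98.0% of them at the GENCODE M21 (GRCm38) position. The deposited differential tables, which hold the authors' fold changes and p-values, were not used.

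Groups came from sample titles. edgeR 4.0.16 in R 4.3.3 (TMM, filterByExpr, two-sided quasi-likelihood test, Benjamini-Hochberg adjustment over all genes tested) was fitted per comparison, and a gene was called at an adjusted p under 0.05. The SE of an edgeR log2 fold change was its absolute value divided by the square root of the quasi-likelihood F statistic. Printed CPM used TMM factors over the 12 libraries. Likeness was Pearson's r of tissue-centred log2(CPM + 0.5). The study gives 3 mice per group for the fat libraries. For liver no source used here says that libraries came from separate animals, and p-values there measure the spread between these libraries. Fits were tested on simulated data with the same fixed spread for every gene and changes larger than those of the 7 genes between vectors. That check does not show how the fits perform on changes of the size seen here. Alternatives were DESeq2 1.42.0, other scalings and filters, limma 3.58.1 on log2(FPKM + 1) and log2(FPKM + 0.1), a replicate block, leaving out each library and, added after seeing the data, adding the counts of genes that share sequence with Fdps and Idi1. The genes and lists were chosen with earlier results of these data known. Beside the 7 genes, the text draws, per list and tissue, on genes called and the 3 genes with the largest absolute log2 fold change. For the null tissues, the regulators and the likeness it also names genes chosen after their values were seen. Some genes of the route are not reported here.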

Additional observations from a re-analysis of the deposited data

How the results depend on the processing

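Counts of genes called depended on the method. In liver 0 became 91 with DESeq2, 2 with library size alone, 327 without a filter, 17 with the replicate block, 3 and 7 with limma on log2(FPKM + 1) and log2(FPKM + 0.1), and 0 to 146 on leaving out a library, the highest without hHKDC1 OE replicate 2. In fat 0 became 1434 with DESeq2, 803 without a filter, 876 with 12 libraries in 1 fit, 168 with the replicate block, 1 with either limma fit, and 0 to 3251 on leaving out a library. For the difference between tissues 0 became 499 with DESeq2, 479 without a filter and 0 to 1211 on leaving out a library, the highest without fat hHKDC1 OE replicate 2. Of the 7 genes 0 were called in liver under every alternative run, and 0 to 2 in fat on leaving out a library. The cause was not tested.

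Between the null tissues 4 of the 7 were called with the replicate block, Hmgcs1 and Lss besides Cyp51 and Fdps, beside 65.1% of all genes. Same-numbered libraries had deviations correlated at 0.22, 0.19 and 0.09 in liver, -0.13, -0.02 and 0.01 in fat and 0.32, 0.06 and 0.18 between the null tissues, and every library matched its own number best in the first and last of these but not in fat. The labels give no shared origin, so the number was not treated as a pairing.

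Other signs turned as follows. In fat, library size alone gave 0.033 for Insig1 and 0.056 for Rdh11, and summed counts -0.18 for Fdps. For the difference between tissues Idi1 was 0.050 with DESeq2, 0.0034 with upper-quartile scaling, 0.11 with the replicate block and 0.020 with summed counts. Between null tissues Sqle was -0.028 with DESeq2, -0.14 with upper-quartile scaling, -0.033 without a filter, -0.12 with at least 10 counts in every library and -0.0044 with the replicate block. Library size alone gave -0.87 for Sqle, -0.12 for Idi1, -0.35 for Lss, -0.39 for Insig1, -0.21 for Acat2 and -0.65 for Nsdhl.

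Leaving out a library moved log2 fold changes in liver from -0.39 to 0.10 for Hmgcs1, -0.96 to 0.47 for Idi1, -1.15 to 0.056 for Fdps, -0.47 to 0.12 for Lss, -0.20 to 0.43 for Cyp51, -0.45 to 0.30 for Insig1, -0.38 to 0.26 for Rdh11, -0.26 to 0.24 for Stard4, -1.18 to 0.12 for Fasn and -0.41 to 0.14 for Aacs. In fat the ranges were -0.63 to 0.056 for Sqle, -0.42 to 0.054 for Insig1, -0.16 to 0.37 for Fdps, -0.10 to 0.39 for Stard4 and -0.18 to 0.65 for Acly. For the difference between tissues they were -0.45 to 1.00 for Idi1, -0.41 to 0.36 for Insig1, -0.081 to 0.79 for Lss and -0.011 to 0.64 for Cyp51, and between null tissues -0.23 to 1.22 for Idi1, -0.17 to 0.31 for Sqle and -0.19 to 0.53 for Nsdhl. With 3 libraries a group the precision is limited, and for Fdps, at 9 to 59 counts per library, by depth as well.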

Other observations

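Genes of fatty acid synthesis, the branch of lipid synthesis known to respond mainly to SREBP1c, were listed beside the cholesterol route. In liver 0 of 7 passed the test and all 7 log2 fold changes were negative, with a median of -0.52, the lowest being Scd1, the stearoyl-CoA desaturase, at -1.06 ± 0.54 (SE, adjusted p = 0.764). The fatty acid elongase Elovl6 was at -0.73 ± 0.34 (adjusted p = 0.725) and Fasn, fatty acid synthase, at -0.73 ± 0.52 (adjusted p = 0.838). Without null liver replicate 1, the library that was also high in the cholesterol genes, Fasn was at 0.12 and Elovl6 at -0.35. Without a filter on low counts these 3 passed, Scd1 with an adjusted p of 0.00350, Elovl6 0.0128 and Fasn 0.0302. Scd1 also passed without liver hHKDC1 OE replicate 2, at -2.03 (adjusted p = 0.0198), and leaving out a library moved it from -2.03 to -0.64.

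In fat the median of the 7 was 0.09. Gpam, which starts glycerolipid synthesis, was the nearest to a call at -0.85 ± 0.15 (adjusted p = 0.133), with an adjusted p of 0.00269 in DESeq2 and 0.0107 without fat hHKDC1 OE replicate 2. Soat1, which esterifies cholesterol, measured 5.43, 3.12 and 6.49 CPM in null and 19.9, 6.89 and 28.9 CPM in hHKDC1 OE fat (1.82 ± 0.53, adjusted p = 0.166, 0.00673 in DESeq2 and 0.00721 without replicate 2). Replicate 2 was the lowest of the hHKDC1 OE fat for Soat1 and for the B cell (625, 34.6 and 457 CPM) and T cell (245, 17.7 and 276 CPM) marker sums, though not for the macrophage sums (135, 197 and 221 CPM), and the part of immune cells in its level was not tested. Over the remaining lists the test called 0 of 5 sterol-responsive genes outside the route in liver and in fat, with medians of -0.10 and -0.07, and 0 of 9 efflux and esterification genes, with medians of 0.03 and -0.04.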
